A study of Homo sapiens with 2 samples.

Results

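Collagen genes were examined in RNA-seq data of Huh7 cells with and without knockdown of BRF2. They were chosen by name alone: a gene counted as a collagen gene where its symbol was COL, a type number, A and a chain number. This took in 44 of the 61541 genes in the deposited table, covering 28 collagen types. Of these, 27 had at least 10 reads over both libraries, 7 had 1 to 9 reads in all, and 10 had none. The set was picked with results of this contrast already known, so every change below is a description and carries no test.

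Huh7 is an established human hepatocellular carcinoma cell line. Cells given a control siRNA made up 1 library (Huh7-NC), and cells given siRNA to BRF2, part of the complex that starts transcription by RNA polymerase III, made up the other (Huh7-si). The siRNA-treated cells are a transient, partial knockdown, and which of the study's BRF2 siRNAs was used is not given in the labels. With 1 library per condition no difference has a replicate check, and a difference between the libraries cannot be told apart from one between the conditions. Estimated reads on genes summed to 22852648 in Huh7-NC against 22089016 in Huh7-si, so that a gene listed at 0 may hold up to 3 reads, or 0.131 and 0.136 CPM (counts per library total, in parts of 1000000). BRF2 itself, the check of the labels, had 1281 reads in Huh7-NC against 364 in Huh7-si, a log2 change of -1.77 (95% counting interval -1.94 to -1.60). Its level was 70.6% lower in the knockdown library.

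Collagens are the main structural proteins of the extracellular matrix. Each molecule is a triple helix of 3 chains, in which glycine recurs at a fixed step, because glycine alone is small enough to fit at the axis. Fibril-forming collagens build the ropes of connective tissue, network collagens build sheets such as the basement membrane, and fibril-associated collagens decorate the surface of fibrils. In liver, most fibrillar collagen comes from activated stellate cells and fibroblasts, and its build-up is the hallmark of fibrosis. In bulk RNA, a change in the share of cells that make a transcript and a change in its amount per cell cannot be told apart.

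The repeat that defines these genes can be read directly in their exons, many of which are 54 bases long and begin with a whole glycine codon. Such an exon holds 6 triplets of glycine and 2 other residues, at 9 bases a triplet. One is shown for each of 6 members that were past 2-fold in Huh7-si. They were taken from the fibril-forming, fibril-associated, basement membrane and anchoring fibril classes, and other classes are not shown. The exons come from GENCODE release 29 (GRCh38), matched by gene identifier, are written 5′ to 3′ on the coding strand, and have the glycine codon (GGN) that opens each triplet in capitals.
COL27A1 exon 4 of 61, chr9:114178291-114178344, plus strand: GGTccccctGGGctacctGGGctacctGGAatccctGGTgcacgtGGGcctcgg
COL11A1 exon 15 of 67, chr1:103008463-103008516, minus strand: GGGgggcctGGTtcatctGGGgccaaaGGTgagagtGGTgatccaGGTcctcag
COL12A1 exon 55 of 66, chr6:75103757-75103810, minus strand: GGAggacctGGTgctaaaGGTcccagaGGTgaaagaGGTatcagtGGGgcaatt
COL16A1 exon 33 of 71, chr1:31683950-31684003, minus strand: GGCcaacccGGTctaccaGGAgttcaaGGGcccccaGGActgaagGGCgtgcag
COL4A5 exon 7 of 53, chrX:108571413-108571466, plus strand: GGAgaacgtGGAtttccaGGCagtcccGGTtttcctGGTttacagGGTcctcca
COL7A1 exon 48 of 118, chr3:48581706-48581759, minus strand: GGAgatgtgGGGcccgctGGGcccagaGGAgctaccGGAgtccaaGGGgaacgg

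The capitals recur at the same spacing from one end of each exon to the other, while the bases between them differ. Across the 11 fibril-forming genes, the longest coding transcript had 21 to 33 exons of exactly 54 bases, against at most 28 in any other member. COL2A1, COL3A1, COL5A2 and COL1A1 held unbroken runs of 339, 343, 339 and 338 glycine triplets. The run was shorter in COL27A1, at 217, and in COL24A1, at 216. Type IV chains were built differently, with 437 triplets in COL4A1 broken into 22 runs of at least 6 triplets and 444 in COL4A5 broken into 23. COL12A1 was at the other end, with 78 triplets making up 7.64% of its 3063 residues.

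Together, collagen transcripts made up 297 TPM in Huh7-NC against 553 TPM in Huh7-si, where TPM is the abundance per gene length and per library that the authors deposited. That is a ratio of 1.86 by TPM and of 1.73 by reads per total reads. A gene was called past 2-fold where the ratio of its CPM was at least 2 (or at most 0.5) and the 95% interval from counting error left out a ratio of 1. Intervals in parentheses after a change are of this kind throughout. By this rule 13 of the 27 collagen genes with 10 reads or more were higher in Huh7-si, or 48.1%, and 0 were lower. Over all 17921 genes with 10 reads or more, 12.5% were higher and 1.16% were lower. The median log2 change of the collagen genes was 0.85, beside 0.21 for all genes. The facts that bear on that comparison are given with values further on: the scaling between libraries, the length of the genes and the low counts of some members.

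Among the 13, 3 genes had under 10 reads in Huh7-NC and entered the count only through Huh7-si. Where at least 10 reads were required in each library, 10 of 22 collagen genes were past 2-fold, beside 9.19% of all genes. Of all 27, the point estimate was above 0 in 24 and below 0 in 3, namely COL26A1, COL9A3 and COL8A2. The counting interval lay wholly above 0 in 21, spanned 0 in 5 and lay below 0 in 1, COL26A1. No such shares were taken over all genes, whose median log2 change of 0.21 was itself above 0. Where libraries were scaled by TMM instead of by total reads, every log2 fold change fell by 0.22. With it, 12 members were past 2-fold higher and 0 lower, beside 8.48% and 2.18% of all genes, and the medians were 0.63 and -0.02. Over all genes the higher ones made up 91.5% of those past 2-fold by total reads and 79.5% with TMM. COL4A5 was the collagen gene that no longer passed.

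**Figure D1:**
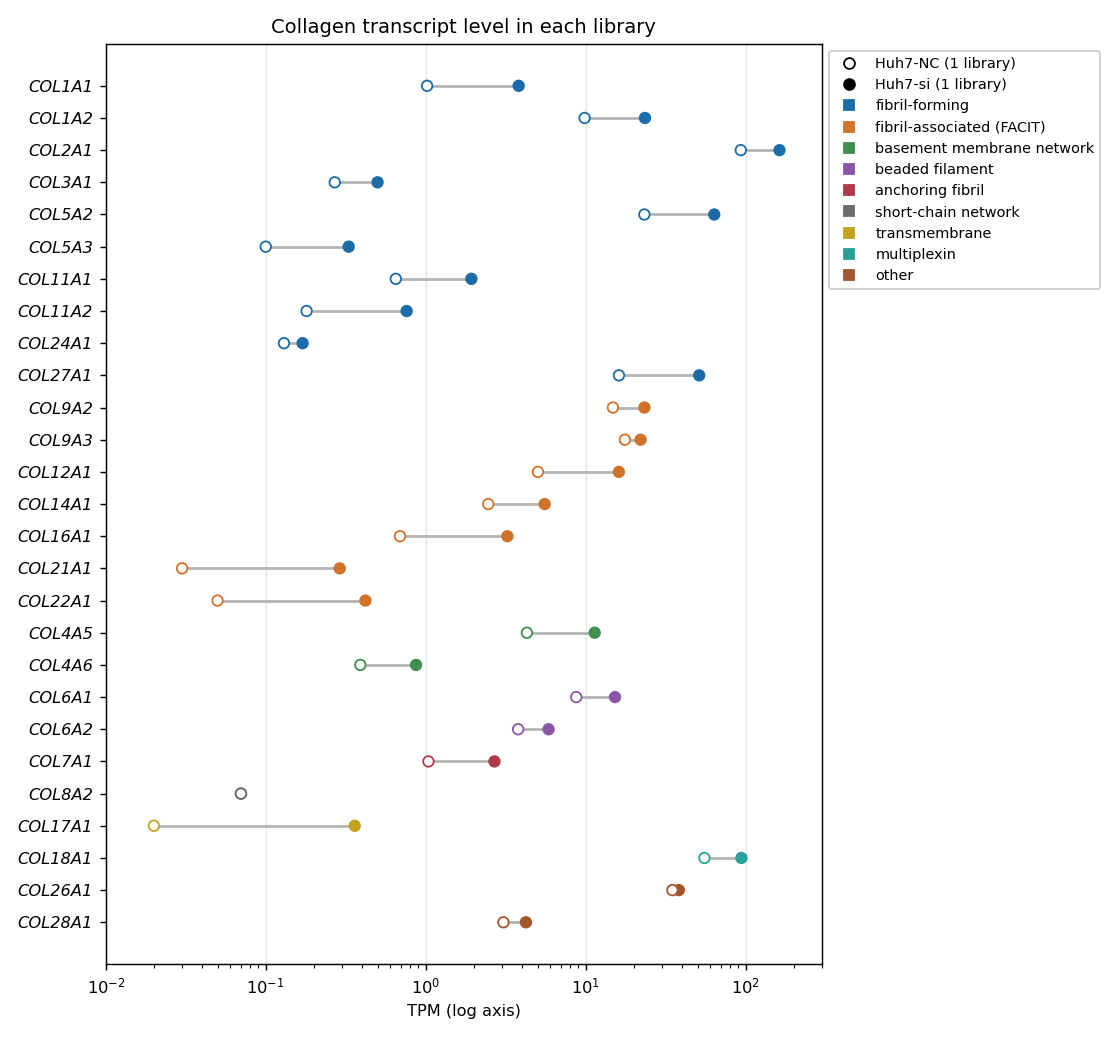
TPM (log axis) of the 27 collagen genes with at least 10 reads, by class, with the open circle for the Huh7-NC library and the filled circle for the Huh7-si library. Levels run from 0.02 TPM for COL17A1 in Huh7-NC to 163 TPM for COL2A1 in Huh7-si, and the filled circle lies to the right for every gene except COL8A2, whose circles coincide at 0.07 TPM. The share of all genes with a higher TPM in Huh7-si was not taken.

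The collagen mRNA of these cells was concentrated in few genes. COL2A1 alone made up 31.3% of the summed collagen TPM in Huh7-NC against 29.4% in Huh7-si, followed in Huh7-NC by COL18A1 (18.6%), COL26A1 (11.7%), COL5A2 (7.82%) and COL9A3 (5.91%). The top 5 genes held 75.3% in Huh7-NC against 74.1% in Huh7-si. In the knockdown library COL5A2 and COL27A1 followed COL18A1, at 11.5% and 9.26%, and COL26A1 had 6.91%. Members above 1 TPM numbered 16 in Huh7-NC against 18 in Huh7-si.

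Fibril-forming collagens held 48.7% of the collagen TPM in Huh7-NC (145 TPM) and 55.8% in Huh7-si (308 TPM). Of the 11 genes, 10 had 10 reads or more, and 7 of these were past 2-fold higher, beside 12.5% of all genes. Relative to genes of like length 3 stayed so, COL1A1, COL11A1 and COL11A2. The median log2 fold change of the 10 was 1.26.

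COL2A1, the chain of type II collagen, which is the main collagen of cartilage, was the most abundant collagen transcript in both libraries. It had 6383 reads in Huh7-NC against 9209 in Huh7-si, or 93.2 and 163 TPM. Its log2 fold change was 0.58 (0.53 to 0.62), short of 2-fold, and with TMM scaling it was 0.35. The gene lies on chromosome 12 (chr12:47972965-48004554, minus strand, GRCh38).

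COL5A2, which encodes the α2 chain of type V collagen and helps to set the width of type I fibrils, had 2896 reads in Huh7-NC against 6776 in Huh7-si, or 23.3 and 63.6 TPM. This 2.42-fold difference (2.32 to 2.53) rested on the largest read counts among the members past 2-fold. Its usual partner COL5A1 was listed at 0 in both libraries. COL5A3, the remaining chain of the type, had 12 and 15 reads (0.10 and 0.33 TPM) and a log2 change of 0.37 (-0.82 to 1.60), an interval that spans both directions. COL5A2 lies close to COL3A1 on chromosome 2, the genes ending toward each other at chr2:189031896-189225312 and chr2:188974320-189012746.

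COL27A1, a fibrillar chain with a shortened helix that is found in cartilage, had 1889 reads in Huh7-NC against 4765 in Huh7-si, or 16.1 and 51.2 TPM. It was 2.61-fold higher (2.47 to 2.75). COL24A1, the only other member of the set whose longest run was as short among fibrillar chains, had 17 and 19 reads (0.13 and 0.17 TPM), with a log2 change of 0.21 (-0.81 to 1.24), and under TMM scaling its sign turned to -0.02. The pair shared the short helix and differed greatly in level, and the interval of COL24A1 took in both no change and 2-fold.

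Type I collagen, the most abundant collagen of bone, tendon and fibrotic liver, is normally built of 2 α1 chains and 1 α2 chain. COL1A2 had 737 reads in Huh7-NC against 1687 in Huh7-si, or 9.84 and 23.5 TPM, and a log2 change of 1.24 (1.12 to 1.37). COL1A1 had 76 and 229 reads, or 1.02 and 3.81 TPM, and a log2 change of 1.64 (1.26 to 2.03). At the level of mRNA the chain needed in the smaller amount was thus the more abundant one, by 9.65 times in Huh7-NC and 6.16 times in Huh7-si by TPM. COL3A1, which forms thin reticular fibrils with type I, had only 19 and 44 reads (0.27 and 0.50 TPM), and its log2 change of 1.26 had a wide interval (0.45 to 2.12).

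The chains of type XI collagen, which nucleate cartilage fibrils together with type II, were scarce. COL11A1 had 28 reads in Huh7-NC against 88 in Huh7-si (0.65 and 1.93 TPM), a log2 change of 1.70 (1.07 to 2.37). COL11A2 had 6 and 47 reads (0.18 and 0.76 TPM), a ratio of 8.10 with a counting interval from 3.46 to 23.2. Even after these differences, both stood at 1.93 TPM or less, well below COL2A1.

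**Figure D2:**
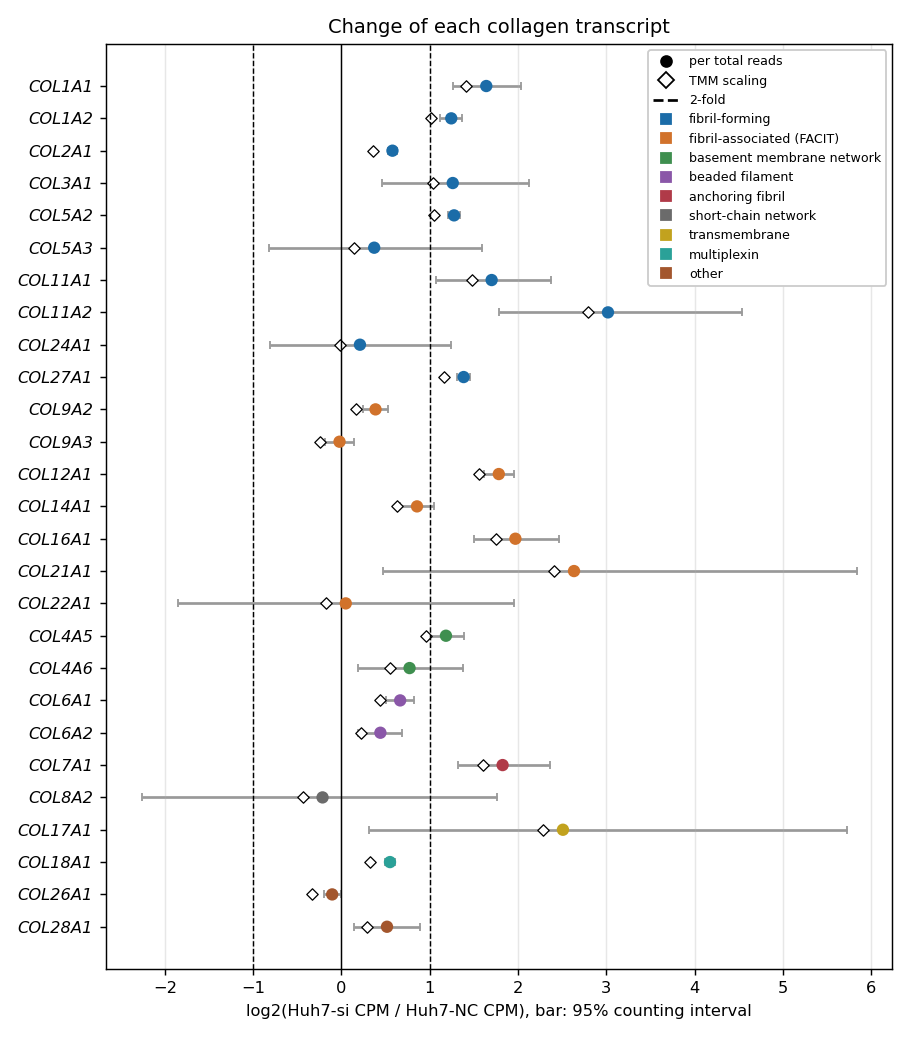
Log2 ratio of CPM in Huh7-si over Huh7-NC for the 27 collagen genes with at least 10 reads, with 95% counting intervals as bars, TMM-scaled values as open diamonds and dashed lines at 2-fold. Per total reads, the intervals of COL5A2 and COL27A1 are narrow and lie wholly past 2-fold, whereas those of COL21A1 and COL17A1, with 14 and 13 reads in all, reach from 0.47 to 5.84 and from 0.31 to 5.72. The TMM-scaled values of COL5A2 and COL27A1 are nearer to the 2-fold line, at 1.05 and 1.16.

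Fibril-associated collagens (FACITs), which sit on fibril surfaces and link them to other matrix, had 7 of 10 genes with 10 reads or more, 3 of them past 2-fold beside 12.5% of all genes, and a median log2 change of 0.85. COL12A1, the long flexible chain of type XII, had 373 reads in Huh7-NC against 1240 in Huh7-si, or 5.03 and 16.1 TPM, and was 3.44-fold higher (3.06 to 3.87). COL16A1, a minor component of fibrillar matrix, had 47 and 178 reads (0.69 and 3.24 TPM) and was 3.92-fold higher (2.83 to 5.53). COL21A1 had 2 and 12 reads (0.03 and 0.29 TPM), a ratio of 6.21 (1.38 to 57.1). The first of these rested on a firm count, and the last on so few reads that its size is hardly bounded.

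COL14A1, the close relative of COL12A1, had 347 and 607 reads (2.46 and 5.54 TPM) and a log2 change of 0.86 (0.66 to 1.05), just short of 2-fold. The genes of type IX collagen, the FACIT of cartilage, stayed short of 2-fold. COL9A2 had 707 reads in Huh7-NC against 893 in Huh7-si (14.8 and 23.3 TPM), a log2 change of 0.39 (0.24 to 0.53). COL9A3 had 627 and 597 reads (17.6 and 22.0 TPM), a log2 change of -0.02 (-0.19 to 0.14). The reads of COL9A3 are uncertain, because TCFL5, with 446 and 396 reads, overlaps it on the opposite strand and whether counting used strand is not given in the sources used here. The remaining chain of the type, COL9A1, had 5 and 2.02 reads. COL22A1, a FACIT of tissue junctions, had 6 reads in each library, a log2 change of 0.05 (-1.85 to 1.95), or -0.18 with TMM scaling. Although its reads were equal, its TPM was listed as 0.05 and 0.42. The deposited TPM therefore moved with more than the read count, and not only in genes with few reads. By TPM against reads, the log2 change was larger for COL2A1 (0.80 against 0.58) and smaller for COL12A1 (1.68 against 1.78).

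Type IV collagen forms the sheet of the basement membrane. Its 6 genes lie in 3 pairs transcribed away from each other, with start sites 127 bases apart for COL4A1 and COL4A2, 419 for COL4A3 and COL4A4, and 380 for COL4A5 and COL4A6 (RefSeq, GRCh38.p14). The α1 and α2 chains are the common pair in most tissues, and here they were nearly absent, with 2 and 5 reads for COL4A1 and 2 and 6 for COL4A2. COL4A3 had 0 and 1 reads and COL4A4 0 and 4. COL4A5, mutated in Alport syndrome, had 281 reads in Huh7-NC against 617 in Huh7-si, or 4.29 and 11.4 TPM, a log2 change of 1.18 (0.98 to 1.39), and with TMM scaling 0.96. Its neighbor COL4A6 had 40 and 66 reads (0.39 and 0.87 TPM), a log2 change of 0.77 (0.18 to 1.38).

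COL4A5 exceeded COL4A6 by 11.0 times in Huh7-NC and 13.1 times in Huh7-si by TPM although the start sites are so close. The 250 bases upstream of COL4A5 are shown because they lie wholly between those start sites, with a CCAAT motif and its reverse complement ATTGG in capitals. The sequence is from RefSeq, GRCh38.p14, and is written 5′ to 3′ on the strand of COL4A5.
COL4A5 upstream, chrX:108439588-108439837, plus strand: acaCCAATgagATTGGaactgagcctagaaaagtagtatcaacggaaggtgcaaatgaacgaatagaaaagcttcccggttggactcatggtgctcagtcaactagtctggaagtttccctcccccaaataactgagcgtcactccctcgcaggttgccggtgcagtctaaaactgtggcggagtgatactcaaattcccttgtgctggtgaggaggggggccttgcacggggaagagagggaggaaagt

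A promoter of a different make-up belongs to COL27A1, the fibrillar member with the second-largest read counts past 2-fold. It holds 2 copies of the GC box GGGCGG, in capitals, and no CCAAT or TATAAA motif on either strand.
COL27A1 upstream, chr9:114155287-114155536, plus strand: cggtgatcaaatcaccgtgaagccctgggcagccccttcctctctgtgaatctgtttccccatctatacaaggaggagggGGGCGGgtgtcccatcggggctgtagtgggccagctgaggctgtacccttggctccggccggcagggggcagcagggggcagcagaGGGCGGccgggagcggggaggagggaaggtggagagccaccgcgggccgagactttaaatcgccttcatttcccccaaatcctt

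Over the 250 bases upstream of 27305 genes in the same RefSeq table, searched on both strands, GGGCGG was present in 46.2%, CCAAT in 37.0% and TATAAA in 13.0%. Among the 32 collagen genes with an entry, 21 held GGGCGG, 11 held CCAAT and 7 held TATAAA, and none of these motifs contains another. A match in these letters is a description of the sequence and shows no binding. Collagen genes without an entry in the table were COL1A1, COL1A2, COL2A1, COL3A1, COL5A2, COL6A1, COL6A5, COL8A1, COL9A3, COL14A1, COL20A1 and COL22A1.

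Type VI collagen forms beaded filaments around cells from 3 different chains. COL6A1 had 522 reads in Huh7-NC against 800 in Huh7-si, or 8.73 and 15.3 TPM, a log2 change of 0.66 (0.50 to 0.83). COL6A2 had 237 and 311 reads, or 3.78 and 5.86 TPM, a log2 change of 0.44 (0.19 to 0.69). COL6A3, the chain that normally completes the molecule, had 0 reads in both libraries, as did its relatives COL6A5 and COL6A6. No gene of the class was past 2-fold.

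**Figure D3:**
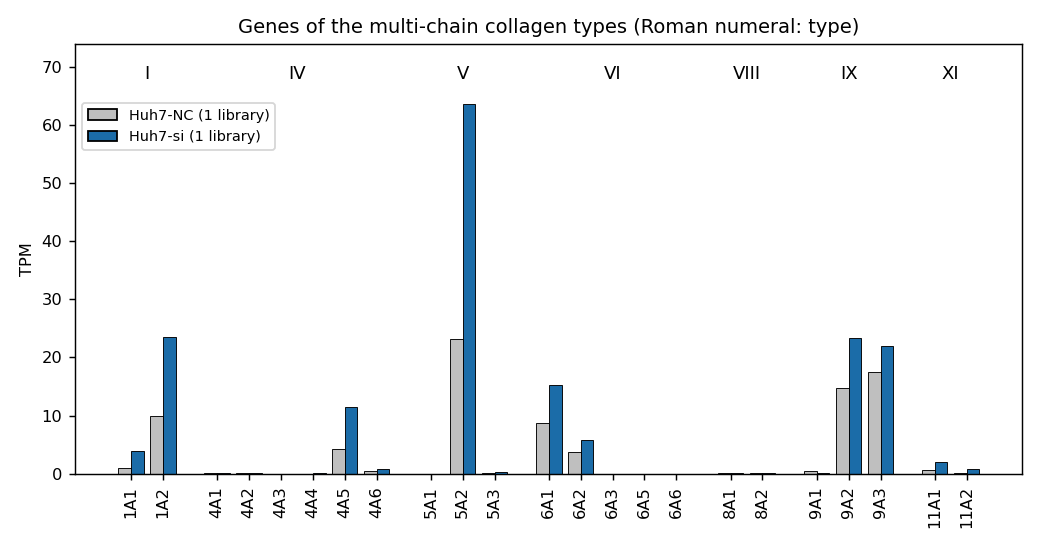
TPM of every gene of the collagen types with more than 1 chain gene, with grey bars for the Huh7-NC library and blue bars for the Huh7-si library. In each of types IV, V, VI and IX one or 2 chains carry nearly all of the level (COL4A5, COL5A2, COL6A1 with COL6A2, COL9A2 with COL9A3), while COL5A1 and COL6A3 are at 0.

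The other classes were mostly represented by a single gene. COL7A1, which builds the anchoring fibrils that tie epithelium to the matrix below, had 42.1 reads in Huh7-NC against 144 in Huh7-si (1.04 and 2.69 TPM) and was 3.54-fold higher (2.50 to 5.13). COL17A1, a transmembrane collagen of hemidesmosomes, had 2 and 11 reads (0.02 and 0.36 TPM), a ratio of 5.69 (1.24 to 52.8). The other transmembrane members, COL13A1, COL23A1 and COL25A1, had no reads. Like COL11A2 and COL21A1, COL17A1 met the filter only through Huh7-si.

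COL18A1, a multiplexin of basement membranes whose cleaved end is endostatin and which hepatocytes are known to make, was the second most abundant collagen transcript. It had 4765 reads in Huh7-NC against 6742 in Huh7-si, or 55.2 and 94.0 TPM, and a log2 change of 0.55 (0.50 to 0.60). SLC19A1 overlaps it on the opposite strand with 2063 and 1962 reads, so that its share of reads is uncertain. COL15A1, the other multiplexin, had no reads.

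COL26A1, a small and little-studied member with 41 glycine triplets in 441 residues, was the most abundant collagen that was not higher in reads, ahead of COL9A3. It had 1867 reads in Huh7-NC against 1678 in Huh7-si, a log2 change of -0.10 (-0.20 to -0.01), whereas its TPM was 34.8 and 38.2, so that its direction turned between the scales. The TPM-based value of COL9A3 turned in the same way, to 0.33. Such turns were not particular to collagen genes. ALB (a log2 change of -0.11, with 3957 and 4077 TPM) and P4HB (-0.06, with 674 and 730 TPM) turned too. How many genes did so was not counted. COL28A1 had 105 and 145 reads (3.06 and 4.23 TPM) and a log2 change of 0.52 (0.14 to 0.89). Short-chain network collagens were nearly absent, with 6 and 5 reads for COL8A2 (a log2 change of -0.21, from -2.26 to 1.76), 2 and 4.19 for COL8A1 and 0 and 2 for COL10A1.

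The 10 genes without reads in both libraries were COL5A1, COL6A3, COL6A5, COL6A6, COL13A1, COL15A1, COL19A1, COL20A1, COL23A1 and COL25A1. The lowest member that passed the filter was COL8A2, with 11 reads in all, and the highest that did not was COL4A2, with 8. Overlapping genes with reads lie opposite COL10A1, COL19A1 and COL4A3 as well (NT5DC1, LMBRD1 and AC097662.1), so their counts of at most 2 reads are uncertain too.

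Collagen genes are long, and in these libraries the difference was larger in longer genes. The 27 genes ran from 2497 to 11725 bases with a median of 5914, against a median of 2744 over all genes with 10 reads or more. Genes were split into 20 bins of length, and the median log2 change of the bin holding each member was taken as the value of genes of like length. Over the members, the median of these values was 0.43, beside their own median of 0.85. Where each member's like-length value was subtracted from its own log2 change, the median of the differences was 0.35. Of the 27, 21 lay above the median of genes of like length and 6 below, and 7 stayed past 2-fold relative to it, beside 8.87% of all genes. These were COL1A1, COL7A1, COL11A1, COL11A2, COL12A1, COL16A1 and COL21A1. Of them, COL11A2 (6 and 47 reads) and COL21A1 (2 and 12 reads) met the filter only through Huh7-si. COL5A2 and COL27A1 were then 0.74 and 0.84 above their like on the log2 scale, and COL1A2 was 0.83 above.

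**Figure D4:**
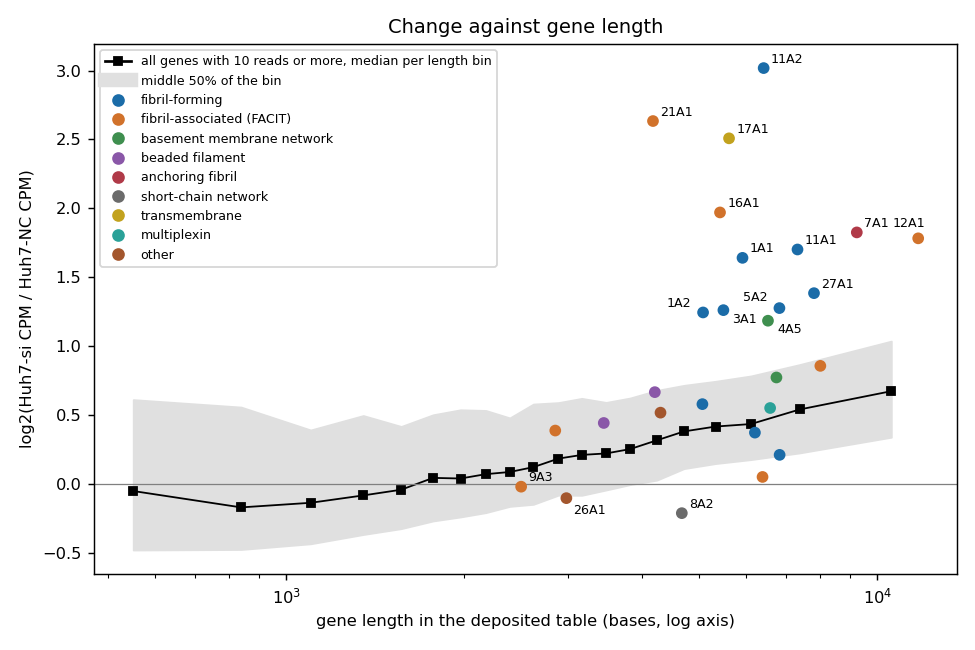
Log2 ratio of CPM in Huh7-si over Huh7-NC against gene length (log axis), with circles for collagen genes and labels for the members past 2-fold or below 0 (the number stands for COL and the type). The black line gives the median of all genes per length bin, from -0.17 at its lowest to 0.67 in the longest bin, the grey band gives the middle 50%, and the members past 2-fold lie above the band or, for COL12A1, beyond its right end.

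The protein-coding genes within the length range of the members numbered 8223, of which 9.90% were past 2-fold higher, and their median log2 fold change was 0.30. Among the members, the 13 past 2-fold had a median length of 6422 bases and the 14 others one of 4864 bases. The former had a median of 21 exons of 54 bases and the latter 3.5. The part of gene length in the collagen values was not tested. Spread between replicate cultures is unknown here. Where a biological coefficient of variation of 0.4 was assumed, 5 collagen genes were past 2-fold, beside 4.21% of all genes. These were COL7A1, COL11A2, COL12A1, COL16A1 and COL21A1. Of them, COL11A2 (6 and 47 reads) and COL21A1 (2 and 12 reads) met the filter only through Huh7-si.

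Making a collagen takes a set of enzymes and chaperones, and these were given as lists of genes by role. The count of each list reads against the 12.5% of all genes past 2-fold higher and the 1.16% past 2-fold lower. Hydroxylases and glycosyltransferases modify proline and lysine in the new chain. Of 14 such genes, 13 had 10 reads or more and 1 was past 2-fold higher, P3H2, a prolyl 3-hydroxylase, with 203 and 394 reads and a log2 change of 1.01 (0.76 to 1.26), which TMM scaling brought to 0.78. The 3 most abundant were P4HB, a subunit of prolyl 4-hydroxylase, with a log2 change of -0.06 (674 and 730 TPM), PLOD3 with 0.18 (150 and 203 TPM) and PLOD1 with 0.17 (71.2 and 91.0 TPM). The median of the list was 0.17, below the 0.21 of all genes.

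Folding and export factors act next, in the endoplasmic reticulum and its exit sites. All 13 had 10 reads or more and none was past 2-fold in either direction, beside 12.5% higher and 1.16% lower over all genes, with a median log2 change of 0.10. The most abundant were PPIB, a prolyl isomerase, at -0.41, SEC13, of the vesicle coat, at -0.41 and HSPA5, the general chaperone BiP, at -0.01. The highest values of the list were 0.87 for MIA3 and 0.68 for FKBP10, and the lowest was that of PPIB. The enzymes that cut propeptides and crosslink fibrils had 10 of 14 genes with 10 reads or more, a median of 0.31 and 1 gene past 2-fold. That gene was LOXL2, a lysyl oxidase, with 144 reads in Huh7-NC against 329 in Huh7-si and a log2 change of 1.24 (0.95 to 1.53). The 3 most abundant of the list were PCOLCE2, an enhancer of propeptide cleavage, at -0.65, PCOLCE at 0.29 and LOX at 0.30. ADAMTS2, which removes the amino-terminal propeptide of type I collagen, had no reads.

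**Figure D5:**
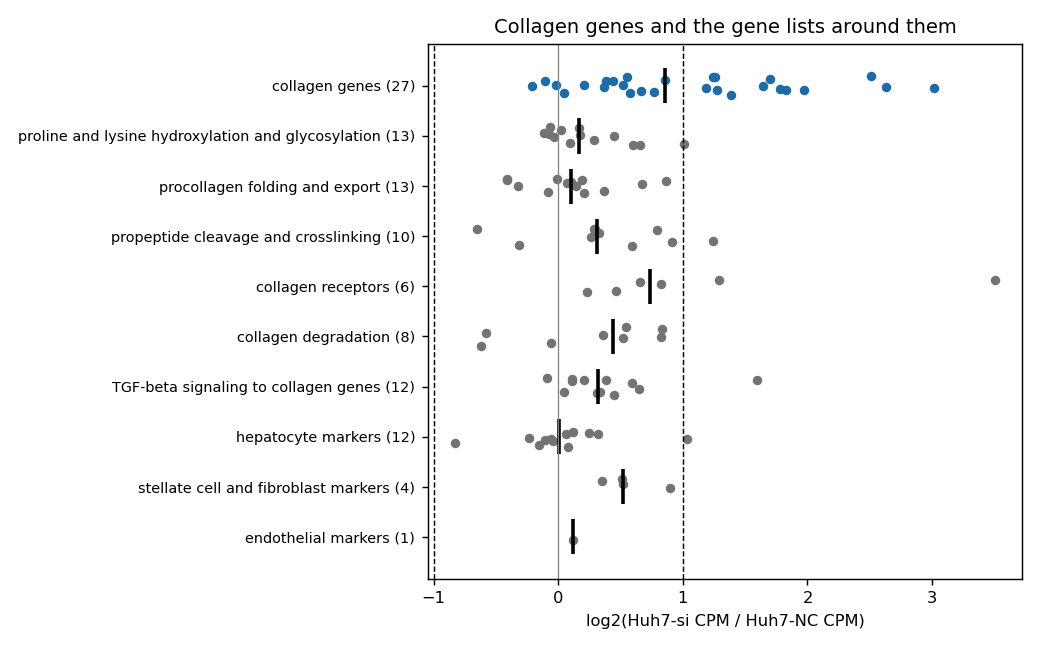
Log2 ratio of CPM in Huh7-si over Huh7-NC for the collagen genes (blue) and for each of 9 lists of genes around them (grey), with 1 point per gene with at least 10 reads, the number of genes in parentheses, a thick bar at the median and dashed lines at 2-fold. The median of the collagen genes is 0.86 without a pseudocount, and those of the 3 biosynthesis lists lie between 0.10 and 0.31.

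Collagen receptors on cells had 6 of 10 genes with 10 reads or more and a median log2 change of 0.74. Of these, 2 were past 2-fold, beside 12.5% of all genes. ITGA2, the α2 integrin subunit that binds type I collagen, had 489 reads in Huh7-NC against 1155 in Huh7-si and a log2 change of 1.29 (1.14 to 1.44). MRC2, an endocytic receptor that takes up collagen, had 1 and 11 reads, a log2 change of 3.51 with an interval from 0.73 to 8.94, and met the filter only through Huh7-si. The most abundant, ITGB1, its β1 partner, stood at 0.47 (141 and 224 TPM), DDR1, a collagen-activated kinase, at 0.23 and ITGA1 at 0.65. The receptor genes were long as well, with a median of 0.34 among others of their length.

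The list of collagen degradation holds enzymes and also the metalloproteinase inhibitors TIMP1 (0.52), TIMP2 (0.36) and TIMP3 (-0.62). Of its 14 genes, 8 had 10 reads or more and none was past 2-fold, with a median log2 change of 0.44, inhibitors included. PEPD, which splits proline dipeptides, stood at -0.58, MMP14, a membrane collagenase, at 0.55 and MMP15 at -0.06. The secreted collagenases were nearly absent, with 2 and 1 reads for MMP1, 1 and 0 for MMP13 and none for MMP8. TGF-beta signaling, a main driver of collagen transcription, had 12 of 12 genes with 10 reads or more and a median of 0.32. One gene was past 2-fold, TGFB2, a ligand, with 263 reads in Huh7-NC against 769 in Huh7-si and a log2 change of 1.60 (1.39 to 1.80). CCN2, a known target of the pathway, stood at 0.31, and the ligand TGFB1 at -0.09. With TMM scaling the medians of the lists were -0.06 for modification, -0.13 for folding and export, 0.09 for cleavage and crosslinking, 0.51 for receptors, 0.22 for degradation and 0.10 for TGF-beta signaling, beside -0.02 for all genes. PLOD1 and PLOD3 then stood at -0.06 and -0.05.

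Markers of cell types were read beside the collagen genes. All 12 hepatocyte markers had 10 reads or more, with 3957 and 4077 TPM for ALB, 3391 and 4014 for AFP and 2938 and 2972 for SERPINA1, so the defining genes of the labelled cell type were present. Their median log2 fold change was 0.01 by total reads and -0.22 with TMM, and APOB alone was past 2-fold, at 1.04 (1.01 to 1.06), or 0.81 with TMM scaling. APOA1 went the other way, with 15460 and 8417 reads and a log2 change of -0.83 (-0.87 to -0.79), which TMM scaling brought past 2-fold lower, to -1.05. Genes of the length of APOB had a median of 0.67 and those of the length of APOA1 one of -0.17. Of the 13 stellate cell and fibroblast markers, 7 had no reads in either library (DES, THY1, LRAT, DCN, POSTN, HAND2 and ASPN), ACTA2 had 2 and 7, and NGFR had 3 and 3. The 4 with 10 reads or more, PDGFRA, PDGFRB, LUM and RGS5, stood between 0.35 and 0.90. The list summed to 8.97 TPM in Huh7-NC against 12.3 TPM in Huh7-si, and its part in the collagen counts was not tested. Of 10 endothelial markers, PECAM1 alone had 10 reads or more, with 60 and 63, and the list summed to 1.16 and 2.02 TPM.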

How the data were processed

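RNA was sequenced from 1 Huh7-NC and 1 Huh7-si library. The submitters' processing notes name TopHat2 2.0.12, Bowtie2 2.0.6 and the build GRCh37; counting tool, annotation and strandedness are not given in the sources used here. The authors deposited, per gene, an estimated count (partly fractional, not scaled to library size), a TPM value and a gene length. The deposited ratio, log2 and p-value columns hold the authors' own comparison and were not used, and 0 other per-sample columns were left unused. Collagen positions and exons were taken from GENCODE release 29 (GRCh38), in which 94.8% of gene identifiers were found, including all 44 collagen genes; no coordinates were read from the files.

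Estimated counts were rounded to whole numbers for intervals and scaling. Folds are ratios of CPM, medians add 0.5 reads to each library, and intervals are exact 95% Clopper-Pearson intervals that cover counting error only; so does the limit of 3 reads for a gene at 0. No p-values were computed. The calling script was tested on simulated data. Alternatives were TMM (edgeR 4.0.16), median of ratios (DESeq2 1.42.0) and upper-quartile scaling, the TPM ratio (0.01 TPM added), other filters, a pseudocount of 1 CPM, a fold of 1.5, an assumed coefficient of variation of 0.1 or 0.4, and values relative to genes of like length (20 bins). Every collagen gene was named, and of each list the genes past 2-fold and the 3 with the highest mean TPM, except 1 gene that is not reported here; other list genes named were chosen after their values were seen. Collagen genes and lists were chosen with earlier results of these data known. Python 3.11.15, NumPy 2.4.6, pandas 2.3.3, SciPy 1.17.1, matplotlib 3.10.9 and R 4.3.3 were used.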

Additional observations from a re-analysis of the deposited data

How the results depend on the processing

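Of the 27 collagen genes, 13 were past 2-fold higher, and the count lay between 10 and 16 under every scaling, filter, pseudocount and fold threshold tried. Over all genes the share was 12.5% by total reads, 8.48% with TMM and 9.19% with 10 reads in each library. It was not taken for other settings of this range, among them the TPM ratio and the fold of 1.5, which each gave 16. The 16 by TPM took in COL22A1, with 6 reads in each library. The collagen count was 7 relative to genes of like length, beside 8.87% of all genes. With an assumed coefficient of variation of 0.4 it was 5, beside 4.21%. Both of these counts took in COL11A2 and COL21A1, which met the filter only through Huh7-si. No alternative gave a collagen gene past 2-fold lower. The median log2 fold change of 0.85 became 0.35 relative to genes of like length and lay between 0.58 and 1.25 otherwise. Upper-quartile and median-of-ratios scaling lowered all log2 fold changes by 0.19 and 0.21, close to TMM. The log2 fold change of BRF2 was -1.99 with TMM, -1.97 with median of ratios, -1.95 with the upper quartile and -1.59 by TPM. Among single members, no gene past 2-fold changed sign; those that did were COL22A1 and COL24A1 under TMM, COL22A1 under the other 2 scalings, COL9A3 and COL26A1 by TPM, and COL5A3, COL22A1 and COL24A1 relative to genes of like length. No paired analysis was possible because each condition has 1 library. Depth limits the members with few reads, whose intervals span several-fold. Among them are COL11A2 (6 and 47 reads, a ratio between 3.46 and 23.2) and COL3A1 (19 and 44 reads, between 1.37 and 4.35).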
